A study of Mus musculus with 12 samples.

Results

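Myeloid lectins and scavenger receptors are surface proteins with which macrophages and dendritic cells bind sugars, lipids, damaged cells and modified proteins. Their genes were looked up by name in a table of NanoString counts from a mouse model of cutaneous lupus. Of 10 listed genes, 6 were analysed here, among 547 endogenous genes in all: the scavenger receptors Cd163, Cd36 and Msr1, the endocytic lectin Cd209g and the activating lectins Clec4e and Clec5a. The listed genes Clec4a2, Clec4n, Clec7a and Mrc1 were not analysed here. The 12 samples were labelled as DO11.10 T cells, whose transgenic T cell receptor recognises ovalbumin. In 6 of them the cells came from digested lesional skin of mice that had received Th2-skewed cells, 3 at flare at about week 12 (mice 1, 2 and 12, with skin disease scores of 1, 0.5 and 2) and 3 at first lesions at about week 4 (mice 1, 3 and 6, with scores of 1, 3 and 3). The other 6 were cultures before injection, harvested on day 10: 3 Th2, 2 Th1 and 1 Th0. Flare mouse 12, Th2 samples 2 (male) and 3 (female), Th1 sample 2 and the Th0 sample belonged to experiment 2, and all others to experiment 1. Mouse number 1 stands at both stages, and whether it was the same animal is not given in the sources used here. Per the methods, mice were on the Balb/c background, and recipients were irradiated Ii-TGO mice, either TLR9KO or TLR9WT. They were fed doxycycline chow to switch on the transgene in cells that carry MHC class II. Chow was withdrawn and given again for the flare. For lesion induction the paper's results name TLR9-deficient recipients, and they describe TLR9+/+ mice of an earlier data set as without disease. The TLR9 genotype and age of each mouse are not given in the sample labels, and donor T cells had been stimulated with ovalbumin-pulsed splenocytes, so cultures could hold RNA of those cells.

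These receptors fall into classes by what follows binding. Clec4e (Mincle) pairs with the Fc receptor gamma chain, encoded by Fcer1g, and Clec5a (MDL-1) pairs with DAP12, encoded by Tyrobp, and through these adaptors both activate the kinase Syk. Cd209g belongs to the mouse family related to human DC-SIGN, lectins that bind mannose- and fucose-rich sugars. Scavenger receptors take their ligands into the cell: Cd163 binds haemoglobin-haptoglobin complexes and marks tissue macrophages, Msr1 binds modified lipoproteins, and Cd36 takes up oxidised lipids and long-chain fatty acids and is also found on endothelial cells, adipocytes and platelets. None of these genes is a marker of T cells.

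The skin samples did not carry the T cell signature of their label. Cd3e, which encodes a chain of the T cell receptor complex, lay at 3 to 7 counts at flare, 7 to 27 at first lesions and 3117 to 4801 in the cultures, and was above the detection limit (the mean of a sample's negative control probes plus 2 SDs) in 0 of 6 skin samples. Of 18 T cell identity genes, 2 to 7 per flare sample and 0 to 6 per first lesion sample were above the limit, against 17 to 18 per culture. The labels and the NanoString methods name CD3 enrichment for these samples, while other passages of the study, on results and on skin cell isolation, name KJ1-26, an antibody against the DO11.10 receptor. Endogenous counts summed to 25925 to 131229 in skin and 417917 to 481131 in cultures. Counts were scaled to 7 housekeeping genes, whose geometric mean was 349 to 2287 in skin samples, so the limit in scaled counts was 35.7 to 242 in skin and 3.87 to 8.41 in cultures. In such bulk RNA, fewer cells of a type and less RNA per cell cannot be told apart, and tissue, digestion and depth cannot be told apart in a comparison of skin with cultures. The paper counts the cultures as cell batches and the skin samples as mice. The male and female Th2 cultures shared an experiment, and what else they shared is not given. The p-values measure only the spread between the samples of a group, which may be technical in part.

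Cd163, Cd36 and Cd209g were above the limit in all 6 skin samples and in 0 of 6 cultures. Cd163 had 60, 77 and 404 counts in flare mice 1, 2 and 12 and 63, 239 and 451 counts in first lesion mice 1, 3 and 6. The Th2 cultures held 16, 8 and 12 counts of it, the Th1 cultures 14 and 4, and the Th0 culture 12. The skin counts did not overlap those of the cultures, and the lowest, at first lesions in mouse 1, was 1.89 times its limit, while flare mouse 12 stood highest at 19.7 times. Cd36 had 40, 54 and 76 counts in flare mice 1, 2 and 12, and 66, 88 and 249 counts in first lesion mice 1, 3 and 6. In the cultures it stayed between 4 and 14 counts. Msr1, the class A scavenger receptor, had 8, 9 and 18 counts at flare and 16, 17 and 48 at first lesions, and only the 48 counts of mouse 6 passed the limit of that sample, 46.3 counts. In the 6 cultures Msr1 lay at 3 to 15 counts. Of the scavenger receptors, Cd163 and Cd36 were detected throughout the skin samples and Msr1 in 1.

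**Figure D1:**
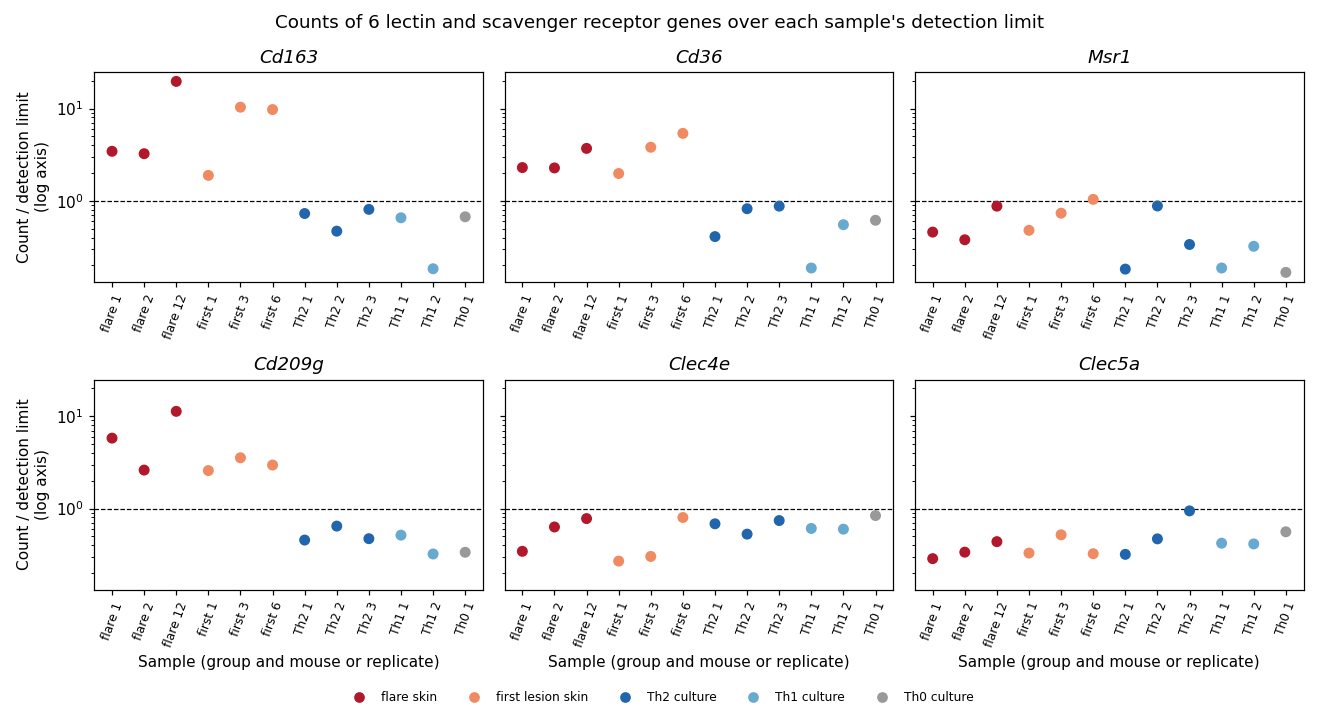
Count of each of the 6 genes divided by the detection limit of the same sample, on a log axis, for the 3 flare and 3 first lesion skin samples and the 3 Th2, 2 Th1 and 1 Th0 cultures. Each point is a sample and the dashed line is the limit: Cd163, Cd36 and Cd209g lay above it in all 6 skin samples and in 0 of 6 cultures, Msr1 in 1 skin sample, and Clec4e and Clec5a in 0 of 12 samples.

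Cd209g, the endocytic lectin, had 101, 62 and 232 counts in flare mice 1, 2 and 12 and 86, 82 and 137 counts in first lesion mice 1, 3 and 6. The Th2 cultures held 10, 11 and 7 counts, the Th1 cultures 11 and 7, and the Th0 culture 6. Each skin sample lay at least 2.58 times above its own limit. Cd209g also exceeded each of the 8 negative control probes in each of the 6 skin samples, as did Cd163 and Cd36.

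The activating lectins were not detectable at this depth. Clec4e had 6, 15 and 16 counts at flare (mice 1, 2 and 12) and 9, 7 and 37 at first lesions (mice 1, 3 and 6), against limits of 17.4 to 23.7 and 23.1 to 46.3 counts, and 9 to 15 counts in the cultures. Clec5a had 5 to 9 counts at flare, 11 to 15 at first lesions and 7 to 14 in the cultures. Summed over the 6 skin samples, Clec4e came to 90 counts and Clec5a to 60, within the 33 to 142 counts of the single negative control probes. Msr1 came to 116 counts, with 1 of 8 negative control probes above it, whereas Cd36, Cd209g and Cd163 came to 573, 700 and 1294 counts. The 37 Clec4e counts at first lesions in mouse 6 equalled the highest negative control probe of that sample, also 37. A gene at a low level per cell could lie under these limits.

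Because skin counts are divided by a small housekeeping factor, background itself looks higher in skin after scaling. With no filter on low counts, the edgeR fit gave the 8 negative control probes a median log2 fold change of 4.13 in flare samples over Th2 cultures, between 3.05 and 4.91, and called 8 of 8 higher. In first lesions over Th2 cultures their median was 3.87, between 2.73 and 4.99, with 6 of 8 called. In that fit Clec4e (3.93 at flare, 3.13 at first lesions), Clec5a (3.46 at flare, 3.29 at first lesions) and Msr1 (4.39 at flare, 4.48 at first lesions) had adjusted p between 3.31e-05 and 0.00871 in edgeR, yet lay inside the range of the negative control probes. Cd163, Cd209g and Cd36 lay above that range, at 6.10 or more.

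**Figure D2:**
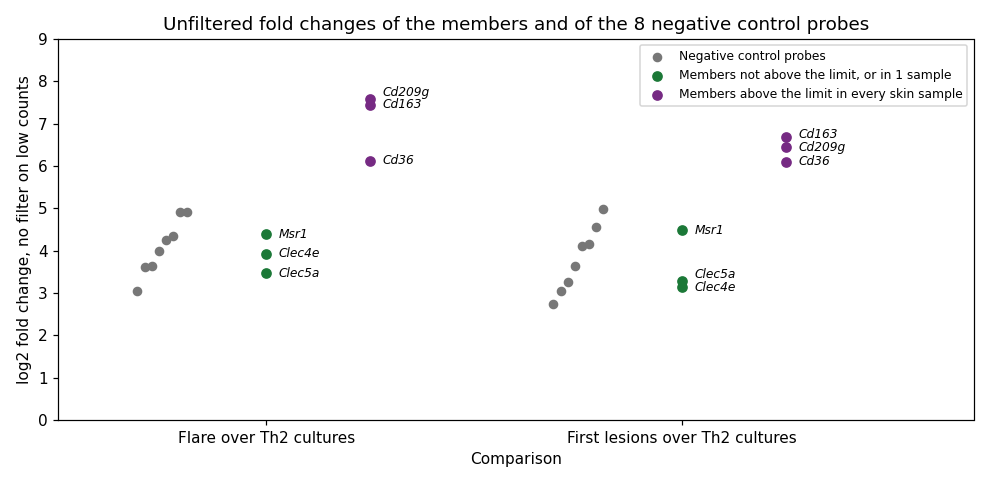
Log2 fold change over Th2 cultures without a filter on low counts (vertical axis), for flare (left) and first lesions (right). Grey points are the 8 negative control probes, green points are Clec4e, Clec5a and Msr1, which lie among them, and purple points are Cd163, Cd209g and Cd36, which lie above the highest control at 4.91 and 4.99.

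The 250 bases before the transcription start are shown for the 3 genes that were high in skin together and for Clec4e, an activating lectin that was not, so that their sequences can be set side by side. They come from RefSeq on GRCm38.p6, in which 5 of the 6 genes had a promoter entry. They read 5′ to 3′ on the strand of the gene: Cd163 at chr6:124304401-124304650 (plus strand), Cd36 at chr5:17835897-17836146 (minus strand), Cd209g at chr8:4134486-4134735 (plus strand) and Clec4e at chr6:123289872-123290121 (minus strand). Capitals mark matches, on either strand, to 4 motifs: GAGGAA (the core bound by PU.1, a factor of myeloid cells), TGANTCA (AP-1), TTGCNNAA (C/EBP) and TATAAA (the TATA box).
Cd163: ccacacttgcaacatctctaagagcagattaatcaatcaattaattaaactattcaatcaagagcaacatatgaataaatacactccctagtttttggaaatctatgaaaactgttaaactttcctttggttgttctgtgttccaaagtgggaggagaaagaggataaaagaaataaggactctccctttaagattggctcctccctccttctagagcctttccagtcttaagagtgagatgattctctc
Cd36: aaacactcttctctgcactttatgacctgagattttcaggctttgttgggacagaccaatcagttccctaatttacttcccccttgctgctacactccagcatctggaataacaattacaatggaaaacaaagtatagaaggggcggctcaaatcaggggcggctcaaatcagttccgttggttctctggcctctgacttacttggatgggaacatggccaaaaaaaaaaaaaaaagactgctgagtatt
Cd209g: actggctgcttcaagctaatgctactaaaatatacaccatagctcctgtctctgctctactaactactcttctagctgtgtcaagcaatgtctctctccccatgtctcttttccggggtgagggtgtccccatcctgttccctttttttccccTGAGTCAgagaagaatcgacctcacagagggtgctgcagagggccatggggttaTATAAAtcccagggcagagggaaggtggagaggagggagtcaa
Clec4e: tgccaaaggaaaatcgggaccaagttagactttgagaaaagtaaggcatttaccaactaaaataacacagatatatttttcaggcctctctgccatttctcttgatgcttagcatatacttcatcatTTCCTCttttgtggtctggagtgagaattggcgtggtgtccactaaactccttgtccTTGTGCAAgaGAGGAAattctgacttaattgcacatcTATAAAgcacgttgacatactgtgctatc

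Cd163 and Cd36 held 0 of the 4 motifs, Cd209g held an AP-1 match beginning 97 bases before the start and a TATA box beginning 43 bases before it, and Clec4e held 2 matches to the PU.1 core, 1 to C/EBP and a TATA box. Clec5a, not printed, held 2 matches to the PU.1 core and 1 to TATAAA, on the antisense strand and 209 bases before the start. Over all 32851 promoters of the same length, 23.3% held the PU.1 core, 6.75% AP-1, 9.56% C/EBP and 12.4% the TATA box. No match overlapped another motif. These letters are a description, and an absent match says only that the letters are not in this window.

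The first comparison set flare samples against the 3 Th2 cultures, which stand for the cells that were injected. All 3 detected members were higher in skin. Cd163 was at 759 ± 468 scaled counts at flare and 4.38 ± 1.80 in Th2 cultures (SD, n = 3 each). All 3 flare samples lay above all Th2 cultures. It rose 7.44 on the log2 scale (standard error, SE, 0.58, adjusted p = 2.54e-06, quasi-likelihood test of edgeR). No Th2 culture passed its limit, so the linear fold is a bound taken against their mean limit, at least 118-fold, and at least 108-fold after subtraction of the negative control mean. Without flare mouse 12 the bound was 75.8-fold and the log2 fold change 6.80. Cd209g was at 647 ± 202 scaled counts at flare and 3.31 ± 0.63 in Th2 cultures, at least 100.2-fold higher (90.7 after subtraction), with a log2 fold change of 7.57 (SE 0.41, adjusted p = 6.33e-07 in edgeR). Cd36 was at 305 ± 58.6 scaled counts at flare and 4.25 ± 0.72 in Th2 cultures, at least 47.2-fold higher (37.7 after subtraction), with a log2 fold change of 6.12 (SE 0.34, adjusted p = 6.33e-07 in edgeR). The 3 genes are those that passed the filter on low counts, and they passed through the skin samples in which they were high. Of the 403 genes tested, 51.4% were called higher at flare and 21.6% lower, 33.5% were called higher and above the limit in all 3 flare samples, and 53.3% had flare samples that all lay above the Th2 cultures.

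The same 3 Th2 cultures served for first lesions, so the controls are shared with the flare comparison. Here too Cd163, Cd209g and Cd36 were higher in skin. Cd163 was at 453 ± 81.2 scaled counts at first lesions and 4.38 ± 1.80 in Th2 cultures (SD, n = 3 each), a log2 fold change of 6.68 (SE 0.48, adjusted p = 1.61e-05 in edgeR) and a bound of at least 70.1-fold. Cd209g was at 304 ± 278 scaled counts at first lesions and 3.31 ± 0.63 in Th2 cultures, a log2 fold change of 6.44 (SE 0.77, adjusted p = 9.99e-05 in edgeR) and a bound of at least 47.1-fold. Mouse 1 set much of this value: without it the bound was 22.3-fold and the log2 fold change 5.42. Cd36 was at 303 ± 172 scaled counts at first lesions and 4.25 ± 0.72 in Th2 cultures, a log2 fold change of 6.10 (SE 0.60, adjusted p = 3.71e-05 in edgeR) and a bound of at least 46.9-fold. After subtraction of the negative control mean the 3 bounds were 61.2, 38.1 and 37.9. All 3 first lesion samples lay above all Th2 cultures for each of the 3 genes. Of 397 genes tested 37.3% were called higher and 22.4% lower, 25.7% were called higher and above the limit in all 3 first lesion samples, and 42.1% had such groups without overlap. When every scaled count was raised to the highest limit of the compared samples before limma, which was 242 in mouse 1, Cd163 kept its call at 0.89 (adjusted p = 0.0198), while Cd209g at 0.46 (adjusted p = 0.620) and Cd36 at 0.42 (adjusted p = 0.538) did not pass. With all 6 skin samples set against all 6 cultures, after subtraction of the negative control mean and with values floored at 106 scaled counts, Cd163 differed by 2.19, Cd209g by 1.64 and Cd36 by 1.13 on the log2 scale. Each had p = 0.00216, the smallest that the 924 regroupings of an exact two-sided permutation test can give, and an adjusted p of 0.00585 over 327 genes. Of these 327 genes 31.5% were called higher in skin, and 20.2% had all skin samples above all cultures. The floor lies above every culture value of the 3 genes, so their skin values above it fix this p in advance. They entered this test only through the skin samples in which they were high.

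Flare was set against first lesions to ask whether the levels differed between the initial and the renewed disease. Cd163 had a log2 fold change of 0.75 (SE 0.47, 95% interval -0.31 to 1.82, adjusted p = 0.542 in edgeR). Its scaled counts were 463, 515 and 1299 in flare mice 1, 2 and 12 and 457, 369 and 531 in first lesion mice 1, 3 and 6, so that the stages overlapped and mouse 12 stood apart from the other 5. Without mouse 12 the log2 fold change was 0.11. Cd209g had a log2 fold change of 1.14 (SE 0.63, 95% interval -0.29 to 2.57, adjusted p = 0.509 in edgeR). It was at 780, 415 and 746 scaled counts in flare mice 1, 2 and 12 and 624, 127 and 161 in first lesion mice 1, 3 and 6. Mouse 1 at first lesions lay within the flare range and mice 3 and 6 below it, and without mouse 1 of the first lesions the log2 fold change was 2.16 (adjusted p = 0.0789, within 0.0789 to 0.885 over all settings tried). Cd36 was at 309, 361 and 244 scaled counts at flare and 479, 136 and 293 at first lesions, with a log2 fold change of 0.03 (SE 0.48, 95% interval -1.07 to 1.14, adjusted p = 0.992 in edgeR). Its sign turned with the scaling, to -0.29 with TMM factors, and the median of all 277 genes tested was 0.42 with the housekeeping genes. Of these 277 genes 16.2% had flare samples all above the first lesion samples, and edgeR called 0% in either direction, with 29 genes and 0 of 3 members at an unadjusted p under 0.05, and DESeq2's Wald test called 9 genes higher and 0 of the 3 members. Intervals of this width include changes of more than 2-fold in all 3 genes.

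The 3 genes differed in how they varied across the skin samples. The ratio of Cd209g to Cd163 counts was 1.68, 0.81 and 0.57 in flare mice 1, 2 and 12 and 1.37, 0.34 and 0.30 in first lesion mice 1, 3 and 6, a 5.54-fold range. That of Cd36 to Cd163 spanned 5.57-fold and was lowest in flare mouse 12. In both samples numbered mouse 1, Cd209g had more counts than Cd163, and in the other 4 skin samples it had fewer. Relative to the geometric mean of 14 myeloid marker genes above the limit in all 6 skin samples, Cd163 lay at 96.1% to 204% at flare and 65.3% to 208% at first lesions. Cd209g lay at 77.4% to 174% at flare and 44.5% to 89.1% at first lesions, and Cd36 at 38.4% to 69.0% at flare and 68.4% to 80.9% at first lesions. On this scale Cd36 spanned 2.11-fold over the 6 samples, Cd163 3.18-fold and Cd209g 3.92-fold. The 14 genes include Ncf4, Cebpb, Itgb2 and Lilrb4. Those were also above the limit in all 3 Th2 cultures, at means of 218, 138, 1014 and 684 scaled counts, so the scale may not follow myeloid cells alone. With these 14 genes as the reference the log2 fold change of flare over first lesions was -0.049 for Cd163, -0.38 for Cd36 and 0.85 for Cd209g, and none passed. By skin disease score, from 0.5 (flare mouse 2) through 1 (flare mouse 1, first lesion mouse 1) and 2 (flare mouse 12) to 3 (first lesion mice 3 and 6), Cd163 was at 515, 463, 457, 1299, 369 and 531 scaled counts. In the same order Cd36 was at 361, 309, 479, 244, 136 and 293, so that the 3 samples with a score of 1 or less lay above the 3 with a higher score. Cd209g was at 415, 780, 624, 746, 127 and 161, lowest in the mice with a score of 3. Background was not subtracted from these scaled counts. Relative to the 14 myeloid marker genes Cd36 was, in the same order, at 67.4%, 69.0%, 68.4%, 38.4%, 76.4% and 80.9%, and its separation by score was not kept. Cd209g stayed lowest at a score of 3 on that scale, at 71.2% and 44.5%. No test was run over scores. The 3 samples with a score of 1 or less also had the lowest housekeeping geometric means, 349 to 403 counts, against 838 to 2287 in the other 3. The part of this in the order of scaled counts was not tested.

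**Figure D3:**
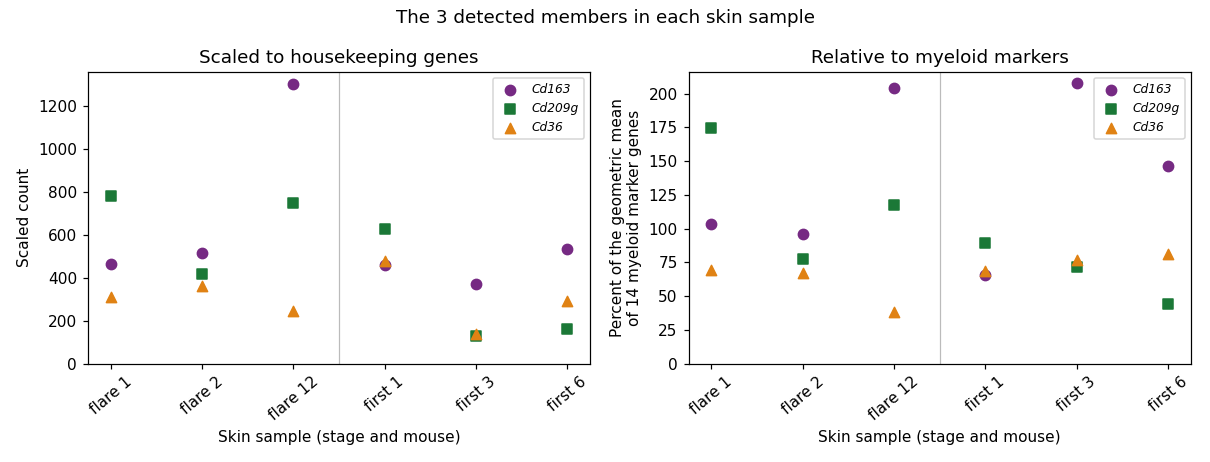
Scaled counts (left) and counts as a percent of the geometric mean of 14 myeloid marker genes in the same sample (right) for Cd163, Cd209g and Cd36 in the 3 flare and 3 first lesion skin samples. Each point is a sample: Cd163 stands highest in flare mouse 12 at 1299 scaled counts, and relative to myeloid markers Cd36 stays between 38.4% and 80.9%.

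In the cultures, skewing was not accompanied by a detectable level of any of these genes. All 6 lay at or below the limit in the 3 Th2, 2 Th1 and 1 Th0 samples, with 4 to 16 counts in Th2 cultures, 4 to 14 in Th1 cultures and 3 to 15 in the Th0 culture. No fold is given, and 0 of 6 entered the comparison of Th2 with Th1 cultures. Of the 400 other genes tested there, 27.8% were called higher and 4.5% lower in Th2 cultures. Part of the myeloid marker list was above the limit in cultures too: 14 to 17 of 24 genes per Th2 culture and 14 to 16 per Th1 culture. Cd14, Csf1r and Trem2 were not, in any of the 6. Which cells of the cultures these counts came from was not tested.

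The adaptors through which activating lectins signal were present in skin although the lectins were not detected. Tyrobp (DAP12) had 192, 271 and 1179 counts in flare mice 1, 2 and 12, 548, 905 and 2101 counts in first lesion mice 1, 3 and 6, and 36 to 53 counts in the cultures. It rose by 7.16 at flare and 7.29 at first lesions over Th2 cultures on the log2 scale (SE 0.49 at flare and 0.59 at first lesions). Fcer1g, the Fc receptor gamma chain, rose by 4.998 at flare and 4.62 at first lesions (SE 0.31 at flare and 0.63 at first lesions). The kinase gene Syk rose by 3.62 at flare and 3.04 at first lesions (SE 0.27 at flare and 0.51 at first lesions). Both were above the limit in 6 of 6 skin samples, and in cultures Syk was in 6 of 6 and Fcer1g in 4 of 6. Both Syk values and the Fcer1g value at first lesions fell within the range of the unfiltered negative control probes, whereas both Tyrobp values lay above it. Those probes measure background alone, whereas Syk and Fcer1g were above the limit in every skin sample and Th2 culture. For such genes that range cannot decide whether a rise is background. Card9, the adaptor downstream of Syk, was above the limit in 1 of 6 skin samples, at 10 to 32 counts, and in 6 of 6 cultures, at 22 to 29 counts. It was called higher over Th2 cultures, by 3.53 at flare and 2.63 at first lesions, neither above the range of those probes. Ptpn6, the phosphatase SHP-1 used by inhibitory receptors, did not pass, with log2 fold changes of -0.49 at flare and -0.18 at first lesions (adjusted p = 0.106 at flare and 0.758 at first lesions in edgeR).

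Of 12 adaptor and signalling genes, all tested, 8 were higher at flare and above the limit in every flare sample, where 33.5% of all genes tested were. At first lesions 5 were by the same count, where 25.7% of all genes tested were. A further 2 at each stage were called higher without being above the limit throughout. Nfkb1 was called lower at first lesions. The median log2 fold change of the 12 genes was 2.03 at flare, beside 1.03 over all genes tested, and 1.59 at first lesions, beside 0.57 over all genes tested. Of 17 genes that activating lectins are known to induce, 10 were tested at flare and 9 at first lesions. By the same count 6 of those 10 were higher at flare, where 33.5% of all genes tested were. At first lesions 4 of those 9 were, where 25.7% of all genes tested were. The median was 4.01 over the 10 tested at flare and 3.11 over the 9 tested at first lesions. Il1b, an inflammatory cytokine gene, was at 329 ± 151 scaled counts at flare and 410 ± 209 at first lesions, against 2.21 ± 0.56 in Th2 cultures (SD, n = 3 each). Ccl2, a monocyte chemoattractant gene, was at 447 ± 112 at flare and 499.6 ± 203 at first lesions, against 9.41 ± 2.37 in Th2 cultures. Il10, an anti-inflammatory cytokine gene, was called lower at both stages, at 29.4 ± 13.6 scaled counts at flare and 18.2 ± 3.98 at first lesions, against 667 ± 190.3 in Th2 cultures. Il12a, Il12b, Il23a, Nos2, Il10 and 4 others of these 17 were above the limit in 0 of 6 skin samples.

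Other pattern recognition receptors of myeloid cells were also detected in part. Of 13, 3 to 6 per flare sample, 2 to 5 per first lesion sample, 4 to 6 per Th2 culture and 4 per Th1 or Th0 culture were above the limit. Cd14 (the lipopolysaccharide co-receptor) and Trem2 (a lipid receptor that signals through DAP12) were above the limit in 6 of 6 skin samples and in 0 of 6 cultures. Trem2 was at 362 ± 239 scaled counts at flare and 240.2 ± 194 at first lesions, against 1.596 ± 0.85 in Th2 cultures (SD, n = 3 each). Cd14 was at 1415 ± 747 at flare and 596 ± 410.1 at first lesions, against 3.25 ± 1.17 in Th2 cultures. Trem1, which also signals through DAP12, Marco, a class A scavenger receptor like Msr1, and the lectin Clec4a4 were among 7 that were above the limit in 0 of 6.

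Sums of myeloid and neutrophil markers were higher in every skin sample than in the Th2 cultures, and those of T cell genes were lower. The list of stromal, endothelial and epithelial markers includes Thy1, which is also a T cell identity gene. Sums over this list overlapped those of Th2 cultures at flare and were lower at first lesions, although most of its tested genes were called higher. Background was not subtracted from these sums, and after scaling it was higher in skin. The limit per gene was 242 scaled counts in first lesion mouse 1 and 135 in flare mouse 1, against 5.42 to 8.41 in Th2 cultures. The part of background in the sums was not tested. Myeloid markers summed to 10767 to 14761 scaled counts at flare and 5348 to 16092 at first lesions, against 3032 to 3859 in Th2 cultures. Per sample, 16 to 21 of 24 were above the limit at flare, 17 to 20 at first lesions and 14 to 17 in Th2 cultures. Among them Csf1r, the receptor for macrophage colony-stimulating factor, was above the limit in 6 of 6 skin samples, and Cx3cr1 and Fcgr1 in 0 of 6. Ccr2, Itgb2 and Lilrb4 of the same list were called lower at both stages, with log2 fold changes of -2.49, -1.17 and -1.07 at flare and -2.36, -1.597 and -1.69 at first lesions. Neutrophil markers summed to 702 to 3185 scaled counts at flare and 814 to 1459 at first lesions, against 47.1 to 192 in Th2 cultures, with 1 to 3 of 7 above the limit per flare sample, 2 to 3 per first lesion sample and 2 to 4 per Th2 culture. S100a8 was above the limit in 6 of 6 skin samples, and Camp, Cxcr1 and Cxcr2 in 0 of 6. Of 14 genes linked to alternatively activated macrophages, 13 were tested at flare and 14 at first lesions. At each stage 9 were called higher and above the limit in all samples (33.5% of all genes tested at flare and 25.7% at first lesions). Il10 and Il4ra were called lower at both. The list was led by Ccl8 (10099 ± 3943 scaled counts at flare and 9935 ± 7388 at first lesions, against 4.65 ± 1.78 in Th2 cultures), a chemokine gene, and C1qa (1815 ± 1208 scaled counts at flare and 1268 ± 999 at first lesions, against 1.88 ± 0.66 in Th2 cultures), which encodes a complement component. Of 14 stromal, endothelial and epithelial markers, 7 to 10 at flare, 3 to 10 at first lesions and 6 in Th2 cultures were above the limit per sample. Their scaled counts summed to 2752 to 6059 at flare, 1310.0 to 3205 at first lesions and 3315 to 5635 in Th2 cultures. The 8 tested had a median log2 fold change of 6.23 at flare and 3.52 at first lesions, and 6 were called higher at each stage. All 6 at flare and 3 at first lesions were above the limit in every sample of their stage. Thy1, also on the T cell identity list, was called lower at both. In Th2 cultures C3, Cd34 and Fn1 were at means of 3.22, 3.86 and 4.41 scaled counts, a small part of the sums there. The share of Thy1 in those sums was not tested. C3, Cd34 and Fn1 of the stromal, endothelial and epithelial list were above the limit in 6 of 6 skin samples, and Pdgfrb, Sele and Vcam1 in 0 of 6. T cell identity genes had sums of 1289 to 1686 at flare and 765 to 1996 at first lesions, against 16787 to 22055 in Th2 cultures. The part of these other cells in the levels of Cd163, Cd36 and Cd209g was not tested.

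**Figure D4:**
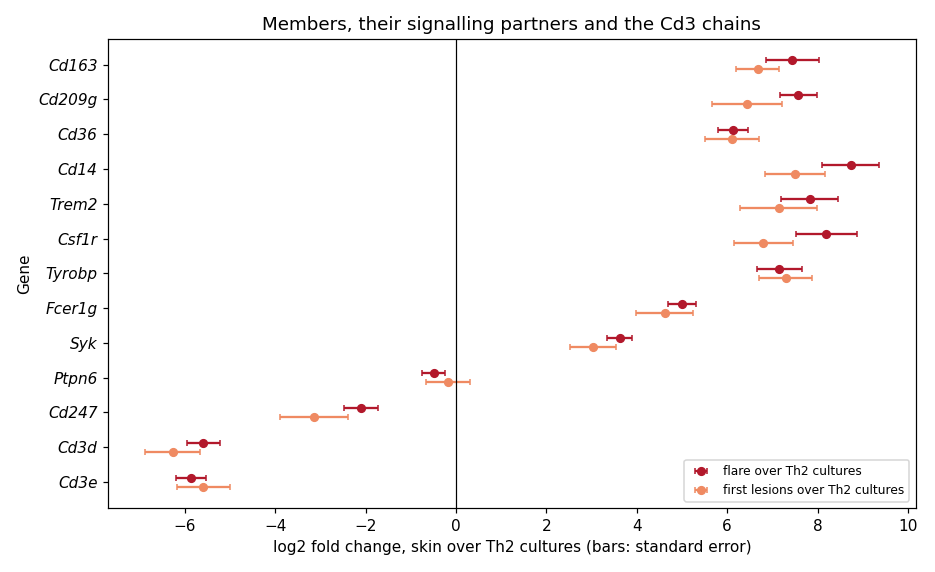
Log2 fold change over Th2 cultures with its standard error (horizontal axis) at flare (dark red, upper of each pair) and first lesions (orange) for Cd163, Cd209g and Cd36, other myeloid receptors (Cd14, Trem2, Csf1r), signalling genes (Tyrobp, Fcer1g, Syk, Ptpn6) and chains of the T cell receptor complex. Cd163, Cd209g and Cd36 lie between 6.10 and 7.57, near Tyrobp at 7.16 and 7.29, while Cd3e lies at -5.86 and -5.59.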

How the data were processed

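RNA from 6 skin samples and 6 cultures was hybridised for 18 h to the NanoString mouse Immunology code set. The authors deposited raw counts per probe: 547 endogenous and 14 housekeeping genes, with 6 positive and 8 negative control probes. The study's own analysis used the Rosalind software. The table carries no genome build, so RefSeq (GRCm38.p6) was used for promoters only.

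A sample's detection limit was the mean plus 2 SDs of its negative controls. Scaled counts are counts divided by a housekeeping factor, the geometric mean of 7 genes that passed the limit in all 12 samples, set to a geometric mean of 1 over samples. A gene was tested if the number of samples past the limit reached the size of the smaller group. The test was the quasi-likelihood F test of edgeR 4.0.16 in R 4.3.3, with the factor as an offset, Benjamini-Hochberg adjustment over all genes tested and a threshold of 0.05. The SE of a log2 fold change is its size divided by the root of F. A bound is the mean scaled count over the mean of the other group's scaled limits. Alternatives used TMM factors, DESeq2 1.42.0, limma 3.58.1 (log2 of the scaled count, pseudocount 1), no filter, other references and samples left out. The test was checked on simulated counts.

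The members and gene lists were chosen with earlier results of these data known. All members were to be named. From other lists, genes were named by the largest changes that passed without overlap between groups. Clec4a4, Trem1, Marco, Cx3cr1, Fcgr1, Csf1r, Ccr2, Itgb2, Lilrb4, Il10, Il4ra and the genes named as undetected were chosen after their values were seen. Experiment numbers in the labels mark a shared batch, and deviations of same-experiment Th2 and Th1 samples correlated at 0.17, a value that 2 experiments make equal for both. The Th0 sample entered no edgeR comparison. Some genes of the panel may have been left out of the table used here.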

Additional observations from a re-analysis of the deposited data

How the results depend on the processing

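Cd163, Cd209g and Cd36 were called higher over Th2 cultures in each of 16 alternative settings at flare. The smallest log2 fold changes, 2.09, 1.97 and 0.92, came with scaled counts raised to the highest limit. At first lesions Cd163 was called in 16 of 16 and Cd209g and Cd36 in 15 of 16, with 1 member called in place of 3 when scaled counts were raised to the highest limit before limma (Cd209g 0.46, Cd36 0.42). That setting removes differences below the limit of the shallowest sample by construction. With no filter 6 members were called in each of these comparisons, and with no floor and no subtraction all 6 differed between skin and cultures in the permutation test. Clec4e, Clec5a and Msr1 then lay among the negative control probes, which were put through the fit after the data had been seen. Bounds with samples left out or background subtracted were also added then. Over the samples left out in turn, log2 fold changes ran from 6.80 to 7.75 for Cd163, 7.43 to 7.81 for Cd209g and 5.99 to 6.28 for Cd36 at flare, and from 6.39 to 6.99, 5.42 to 6.81 and 5.64 to 6.46 at first lesions.

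In flare over first lesions 0 members passed in any of 17 settings. Cd36 changed sign with TMM factors (-0.29), DESeq2 size factors (-0.30), total endogenous counts (-0.26), values raised to the highest limit (-0.11) and myeloid marker genes as reference (-0.38), and ran from -0.33 to 0.49 over samples left out. It was negative without first lesion mouse 3 (-0.33) and without flare mouse 2 (-0.11). Cd163 was -0.049 with myeloid marker genes as reference. With the experiment as a replicate block, Cd163, Cd209g and Cd36 were at 7.51, 7.61 and 6.05 at flare and 6.19, 6.24 and 6.40 at first lesions over Th2 cultures, and at 0.11, 1.03 and 0.18 in flare over first lesions. The block changed no call of a member. The T cell receptor chain genes as a reference were not run, as none was above the limit in every skin sample.

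Above the limit were 163 to 303 endogenous genes per skin sample and 362 to 403 per culture. Within skin this number did not follow total counts alone. Flare mouse 1, with 25925 endogenous counts and a limit of 17.4 counts, had 241. First lesion mouse 1, with 27347 endogenous counts and a limit of 33.4 counts, had 163. With TMM factors the median of all genes moved to 0.01 at first lesions and -0.07 at flare, beside 0.57 and 1.03 with housekeeping genes. The calls higher and lower were then 128 and 130 at first lesions in place of 148 and 89, and 145 and 155 at flare in place of 207 and 87. After subtraction of the negative control mean they were 98 and 138 at first lesions and 144 and 146 at flare.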
